A study of Mus musculus with 6 samples.

Results

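The Hox genes of the mouse lie in 4 clusters, Hoxa on chromosome 6, Hoxb on chromosome 11, Hoxc on chromosome 15 and Hoxd on chromosome 2, and their folding was followed here in Hi-C libraries of B-cell progenitors with and without Erg. The 38 listed members were placed, by the start of each gene, in bins of about 100 kb of mm10, out of 20807 protein-coding genes that start on autosomes. They fell into 9 bins, called the cluster bins below, out of 24067 autosomal bins, and the 10 bins on either side of each cluster (1 Mb) were taken as its flanks. The after flank of Hoxc had 9 bins, because the chromosome ends there. All 9 cluster bins passed the filter on total contacts, as did 23651 autosomal bins in all. Genes that share a bin share every value, so the 9 bins, and not the 38 genes, were the units measured.

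Hox genes encode homeodomain transcription factors that set position along the body axis, and their order in a cluster follows the order in which they are expressed along that axis. In blood cells, members such as Hoxa9, Hoxa10 and Hoxb4 are known from stem cells and early progenitors, and they are turned down as lineages mature. The clusters are also a textbook case of chromatin folding: Polycomb proteins hold silent Hox genes in compact domains that can meet in the nucleus, the Trithorax group keeps active ones open, and in the embryo Hoxa and Hoxd lie between regulatory domains on either side.

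In situ Hi-C, which ligates neighbouring DNA fragments inside intact nuclei and counts the joined pairs, had been applied to B220+ progenitors from the bone marrow of mice on a background given as C56BL/6. The Erg KO group (genotype label Rag1CreT/+;Erg fl/fl) had lost Erg, an ETS-family transcription factor, through a Cre driven by Rag1, which acts from lymphoid progenitors onwards. The CreT control (Rag1CreT/+) carried Cre and unfloxed Erg, while the other control (Erg fl/fl control, Rag1Cre+/+;Erg fl/fl) carried floxed alleles and no Cre transgene. Lineage-negative marrow of all 3 groups had grown for 8 days on OP9 stromal feeder cells with SCF, IL7 and FL before selection for B220. Each group had 2 libraries, from females in the CreT control and from a female and a male mouse in both other groups. The study places the Erg KO cells at the pre-proB stage and its controls at the proB stage, so stage and loss of Erg cannot be told apart in these libraries. Bins of this size cannot show the Erg deletion, so the counts do not check that label.

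The libraries held 29014581 to 68085468 read pairs, the fewest in Erg fl/fl control replicate 2, which also stood apart across bins. Its correlation with the other controls was 0.90 to 0.92 in trans over cis, 0.93 to 0.96 in insulation and 0.98 to 0.99 in compartment score, against 0.96 to 0.98, 0.98 to 0.99 and 0.99 to 1.00 among those controls. Contacts between chromosomes took 32.3% and 34.6% of read pairs in Erg KO and 21.6% to 26.8% in the controls. Hi-C counts hold no expression, so cell identity could be checked only through the compartment score of marker bins, which is positive in open, gene-rich chromatin. B-lineage markers lay in bins with a positive mean score in 9 of 10 cases in both Erg KO and controls, the exception being Ebf1. For markers of stromal feeder cells it was 9 of 12 in Erg KO and 7 of 12 in controls, and for myeloid markers 6 of 6 in both. The 10 B-lineage markers lie in 8 bins. Myeloid markers were positive at least as often, and no share over all bins was set beside these counts. They therefore do not tell the cell types apart. In such bulk libraries, a change in chromatin and a change in the mix of cells cannot be told apart.

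The positions of the members were as follows, all on mm10. In Hoxa, Hoxa2 and Hoxa4 started in the bin at chr6:52100057-52199622, and Hoxa3, Hoxa5, Hoxa6, Hoxa7, Hoxa9, Hoxa10, Hoxa11 and Hoxa13 in the next, at chr6:52199619-52300001. In Hoxb, Hoxb13 started at chr11:96099925-96199355 beside Calcoco2 and Ttll6, Hoxb6 to Hoxb9 at chr11:96199352-96299941, and Hoxb1 to Hoxb5 at chr11:96299938-96399742. In Hoxc, Hoxc5, Hoxc6 and Hoxc8 to Hoxc13 started at chr15:102900422-102999850, and Hoxc4 at chr15:102999847-103099652. In Hoxd, Hoxd9 to Hoxd13 started at chr2:74600173-74699846 together with Evx2, another homeobox gene, and Hoxd1, Hoxd3, Hoxd4 and Hoxd8 at chr2:74699843-74799992.

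The cluster bins were rich in CpG, the dinucleotide that gathers in islands at developmental genes. They held 12.9 to 26.3 CpG per kb, against a median of 7.83 in all kept autosomal bins, and the bin of Hoxa3 to Hoxa13 exceeded 99.98% of bins. Their GC content was 45.2% to 48.9%, against a median of 41.5%. RefSeq start sites were at hand for 22 of the 38 members. The 250 bases before these sites held 2 to 35 CpG with a median of 12.5, against a median of 6 over all promoters in the same table. Some results given below changed when the GC content of the bins was modelled. A CpG-dense start, that of Hoxd13, and one of middling density, that of Hoxb4, are shown as examples. They are RefSeq sequence of GRCm38.p6, 5′ to 3′ along the gene's strand, with CpG in capitals, and Hoxd13 lies at chr2:74667975-74668224 and Hoxb4 at chr11:96318017-96318266, both on the + strand.
Hoxd13: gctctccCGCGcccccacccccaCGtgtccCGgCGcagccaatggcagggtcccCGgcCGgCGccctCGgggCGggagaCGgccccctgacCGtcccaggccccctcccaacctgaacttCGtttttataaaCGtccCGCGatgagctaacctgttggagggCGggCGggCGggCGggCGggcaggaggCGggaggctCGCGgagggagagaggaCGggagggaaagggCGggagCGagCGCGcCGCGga
Hoxb4: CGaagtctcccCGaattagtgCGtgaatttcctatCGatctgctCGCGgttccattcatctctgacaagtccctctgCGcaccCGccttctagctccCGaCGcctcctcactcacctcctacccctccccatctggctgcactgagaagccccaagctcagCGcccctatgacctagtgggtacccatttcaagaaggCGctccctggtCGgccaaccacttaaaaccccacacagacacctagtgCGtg

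CTCF, the zinc-finger protein that stops cohesin loops, binds a long motif whose core word (CCA, 2 free letters, AGG, 1 free letter, GGC) was searched on both strands. The word occurred 9 times in the 9 cluster bins, with 5 matches in Hoxb, 2 in Hoxa and 1 each in Hoxc and Hoxd. A match is a description of the letters and not of binding: 53.0% of kept autosomal bins held at least 1, with a median of 1 per bin, and the bin of Hoxb6 to Hoxb9 held 3, more than 89.9% of bins. All 9 are shown on their own strand, with the word in capitals and 4 bases on either side. Exon there means an exon of at least 1 overlapping gene, which need not be the Hox gene named. Gm28308, Gm29430 and Hoxaas3 also overlap the match at Hoxa3, and Hoxd3os1 overlaps that at Hoxd3 and Hoxd4.
Hoxa, exon of Hoxa3, chr6:52189604-52189623, + strand: tcaaCCAAGAGGAGGCttgg
Hoxa, UTR of Hoxa11, chr6:52242829-52242848, - strand: ttaaCCAAAAGGTGGCtgtg
Hoxb, intron of Ttll6, chr11:96157355-96157374, - strand: gaggCCAGCAGGGGGCcttg
Hoxb, intergenic in the Hoxb6 to Hoxb9 bin, chr11:96237235-96237254, - strand: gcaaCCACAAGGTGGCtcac
Hoxb, intergenic in the Hoxb6 to Hoxb9 bin, chr11:96265871-96265890, - strand: tgtcCCACTAGGGGGCccta
Hoxb, intergenic in the Hoxb6 to Hoxb9 bin, chr11:96286190-96286209, - strand: tctcCCAAGAGGAGGCgagc
Hoxb, intron of Hoxb3, chr11:96344774-96344793, + strand: gcgcCCACAAGGCGGCctgg
Hoxc, intergenic in the Hoxc4 bin, chr15:103062428-103062447, + strand: aaggCCAAAAGGAGGCaaga
Hoxd, exon of Hoxd3 and Hoxd4, chr2:74715917-74715936, + strand: ttgtCCAGGAGGAGGCgctg

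The first question was in which compartment each cluster lay. Hoxa, Hoxb and Hoxc sat in strongly positive chromatin in all 6 libraries, whereas Hoxd sat near zero, as a small peak inside a lower-scoring domain. In Erg KO the score of the Hoxd bin with Hoxd9 to Hoxd13 fell, and the scores of the other 8 cluster bins did not pass the test. The compartment score is the component of the contact pattern of a chromosome that follows gene density, scaled to an SD of 1. The contact pattern was first smoothed over 5 bins, so neighbouring bins share much of their input.

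The bin of Hoxd9 to Hoxd13, genes of the posterior body axis and limb, scored -0.321 and -0.139 in Erg KO replicates 1 and 2, 0.0746 and -0.0743 in the CreT control and 0.157 and 0.375 in the Erg fl/fl control. Both Erg KO libraries lay below all 4 controls, but the controls spanned a range as wide as the change itself. With sex in the model the change was -0.41 ± 0.05 (SE), with an adjusted p of 0.0448 (limma, over all kept bins). The neighbouring bin of Hoxd1 to Hoxd8, genes of more anterior positions, scored -0.253 and -0.1 in Erg KO, 0.101 and -0.0617 in the CreT control and 0.21 and 0.449 in the Erg fl/fl control. It changed by -0.40 ± 0.06 with an adjusted p of 0.052 and did not pass.

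Over all 23651 bins tested, 2.36% fell and 1.58% rose, and 1 of 9 cluster bins fell and 0 rose. The call at Hoxd was made against both controls together, since against either control alone limma called 0 bins on any autosome. There, 3095 fell and 3173 rose at an unadjusted p under 0.05 against the CreT control, and 3458 and 4487 against the Erg fl/fl control. The call was lost without sex in the model (-0.36, adjusted p = 0.262), without CreT control replicate 1 (-0.38, adjusted p = 0.211) and without CreT control replicate 2 (-0.45, adjusted p = 0.152). In each of these 3 fits limma called 0 of all 23651 bins, with 1944 to 2402 lower and 1539 to 1932 higher at an unadjusted p under 0.05. It was also lost without Erg KO replicate 1 (-0.44, adjusted p = 0.0534), where 2608 of all bins fell and 2667 rose, and over all alternatives its adjusted p ran from 0.0195 to 0.29. Removing the GC trend from the scores left it at -0.41 with an adjusted p of 0.0443. Without Erg fl/fl control replicate 1, which left 1 library in that group, more bins passed both at the clusters and over all autosomes.

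The change at Hoxd covered the domain around the cluster. All 10 bins of the flank before it and all 10 bins of the flank after it had a lower fitted score in Erg KO. The median changes were -0.44 and -0.38, against a median of 0.02 over all kept bins. Because of the smoothing, these 20 bins are not separate observations. Besides the cluster bin, 2 of these 20 passed, the bin of Lnpk, a gene of endoplasmic reticulum junctions (-0.47, adjusted p = 0.0489), and the bin before it, which holds no protein-coding start (-0.49, adjusted p = 0.0432). The lowest point of the domain in the controls was the bin 4 before the cluster, at -0.55, against -0.94 in Erg KO. Averaged over the before flank, the score was -0.207 and -0.2 in Erg KO, 0.035 and -0.128 in the CreT control and 0.146 and 0.464 in the Erg fl/fl control. Its replicate 2, the shallowest library, was thus the highest. Without it the change of the Hoxd9 to Hoxd13 bin was -0.40 with an adjusted p of 0.0477. The 2 libraries of males are replicate 2 of Erg KO and of the Erg fl/fl control, so with sex in the model a fit that leaves out either one gives the other no weight in the change.

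The other clusters differed by little. The 2 Hoxa bins scored 1.28 to 1.33 in the 6 libraries and changed by 0.02 and 0.003, with adjusted p of 0.65 and 0.944. The 3 Hoxb bins scored 0.903 to 1.16 and changed by 0.06 to 0.08, with adjusted p from 0.124 to 0.233, and only at the Hoxb13 bin did both Erg KO libraries lie above all controls. The 2 Hoxc bins scored 1.15 to 1.33 and changed by -0.002 and 0.01, with adjusted p of 0.971 and 0.836. In the after flank of Hoxc, the bins of Mucl1 and Mucl2 fell, with changes of -0.32 and -0.28 (adjusted p = 0.0398 and 0.0489), where the score crosses zero towards the end of the chromosome. Among the marker lists, whose part in these changes was not tested, stromal markers had a median change of 0.16 with 1 of 12 bins rising and 0 falling, B-lineage markers one of -0.06 and myeloid markers one of 0.06, with 0 of 10 and 0 of 6 passing.

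**Figure D1:**
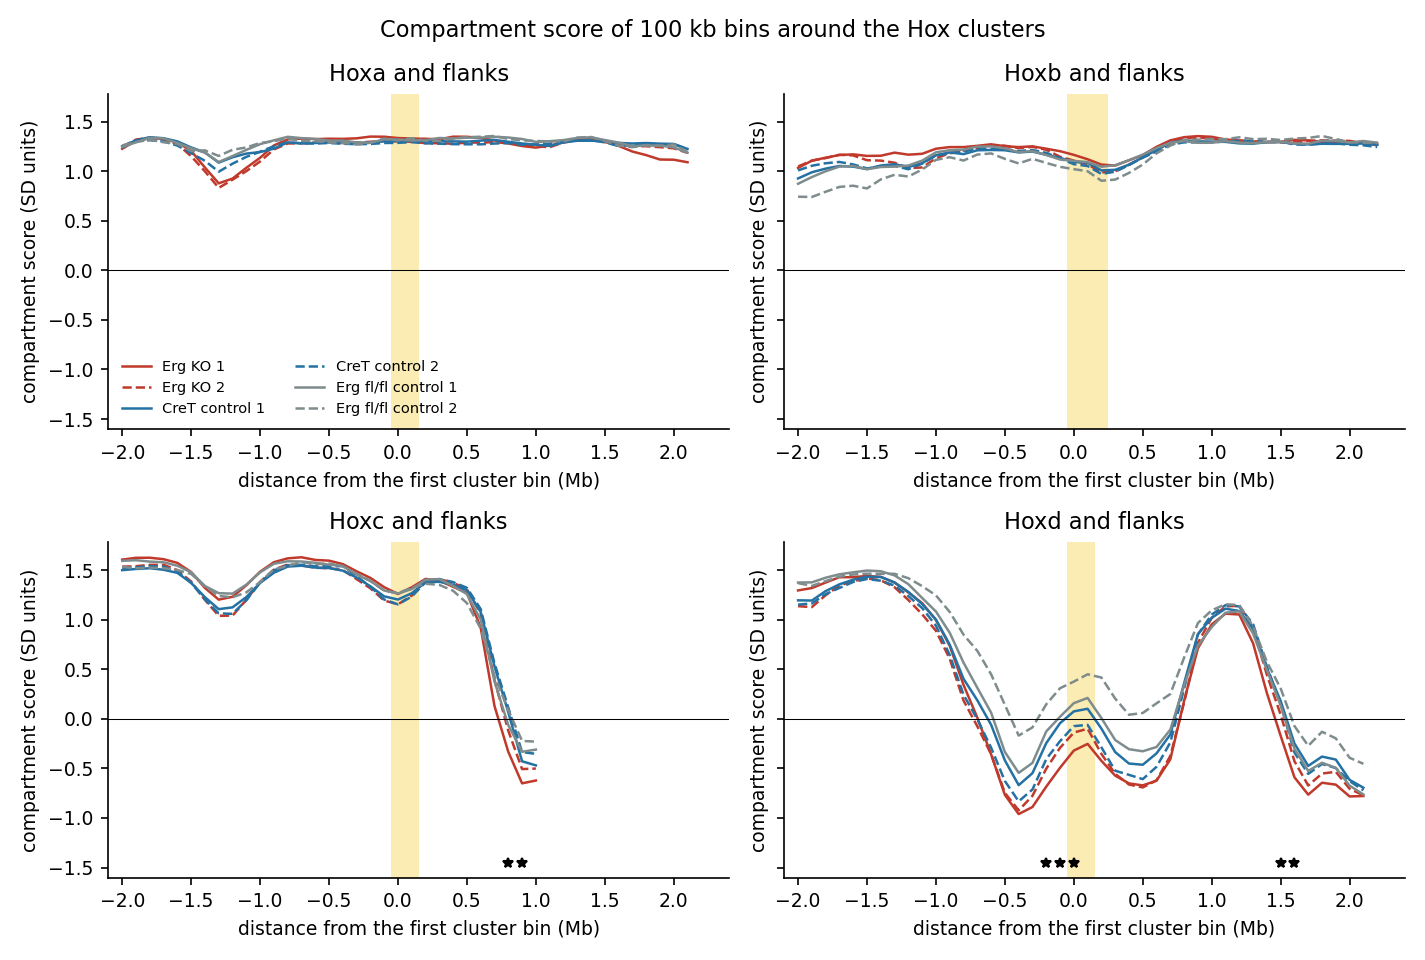
Compartment score (vertical axis, in SD units) of 100 kb bins by their distance from the first cluster bin (horizontal axis, in Mb) for each cluster, with 1 line per library. Shading marks the cluster bins and stars mark bins that passed limma at an adjusted p of 0.05. Hoxa, Hoxb and Hoxc lie near or above 1, while Hoxd is a local peak near 0, where Erg KO replicates scored -0.321 and -0.139.

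The second question was how strongly each cluster met its own flanks. Contacts were expressed as observed over expected, the summed count over the mean at the same distance on all autosomes of the same library, so that 1 is the average locus. The highest values were those of Hoxa with its before flank and of Hoxb with its after flank, and Hoxd held together about as much as an average locus. In Erg KO all 3 values of Hoxb, and the value within Hoxc, were lower than in every control. These ratios were not corrected for GC content.

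Within Hoxb, whose genes are expressed in trunk and blood progenitors, observed over expected was 1.31 and 1.31 in Erg KO, 1.46 and 1.53 in the CreT control and 1.38 and 1.45 in the Erg fl/fl control. With the flank before Hoxb it was 1.18 and 1.26 in Erg KO, 1.48 and 1.41 in the CreT control and 1.4 and 1.62 in the Erg fl/fl control. With the flank after Hoxb it was 1.89 and 2.02 in Erg KO, 2.12 and 2.15 in the CreT control and 2.03 and 2.24 in the Erg fl/fl control. None of these Erg KO values overlapped the controls, although those at the after flank came close. The log2 differences of Erg KO from controls were -0.15, -0.27 and -0.13.

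Within Hoxc the values were 1.57 and 1.55 in Erg KO, 1.66 and 1.62 in the CreT control and 1.63 and 1.67 in the Erg fl/fl control, a log2 difference of -0.07. For all 4 of these values the exact permutation test over 15 splits gave p = 0.0667 (two-sided, n = 2 against 4), and adjusted over the 12 values tested it was 0.2. That is the smallest p that 2 libraries against 4 allow, so no such test here could reach 0.05. When the expected counts came from the same chromosome alone, the difference at the after flank of Hoxb was 0.02 in place of -0.13. The direction within both clusters also turned in the edgeR fits of bin pairs given below, once GC content entered the offsets. The median log2 fold change of the pairs inside Hoxb moved from -0.08 to 0.28. For those inside Hoxc it moved from -0.02 to 0.35.

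Hoxa differed in the other direction on one side. With the flank before it, observed over expected was 2.26 and 2.35 in Erg KO, 2.18 and 2.21 in the CreT control and 2.13 and 1.96 in the Erg fl/fl control, with the Erg KO libraries above all controls (log2 difference 0.12, exact p = 0.133, adjusted 0.32, n = 2 against 4). With the flank after it Hoxa had 1.82 ± 0.033 for Erg KO and 1.88 ± 0.127 for controls (SD, n = 2 and n = 4), and within itself 1.31 ± 0.102 and 1.40 ± 0.0712, and both overlapped. Hoxc with its before flank had 1.16 ± 0.0673 and 1.21 ± 0.101, and with its after flank 1.47 ± 0.122 and 1.58 ± 0.0536, again overlapping. Hoxd had 0.934 ± 0.0369 and 0.985 ± 0.051 within itself, 1.22 ± 0.0481 and 1.24 ± 0.0286 with the before flank and 1.37 ± 0.132 and 1.30 ± 0.0253 with the after flank. In all 3 the libraries of the groups overlapped. Each value rested on 348 to 2869 read pairs in a library.

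**Figure D2:**
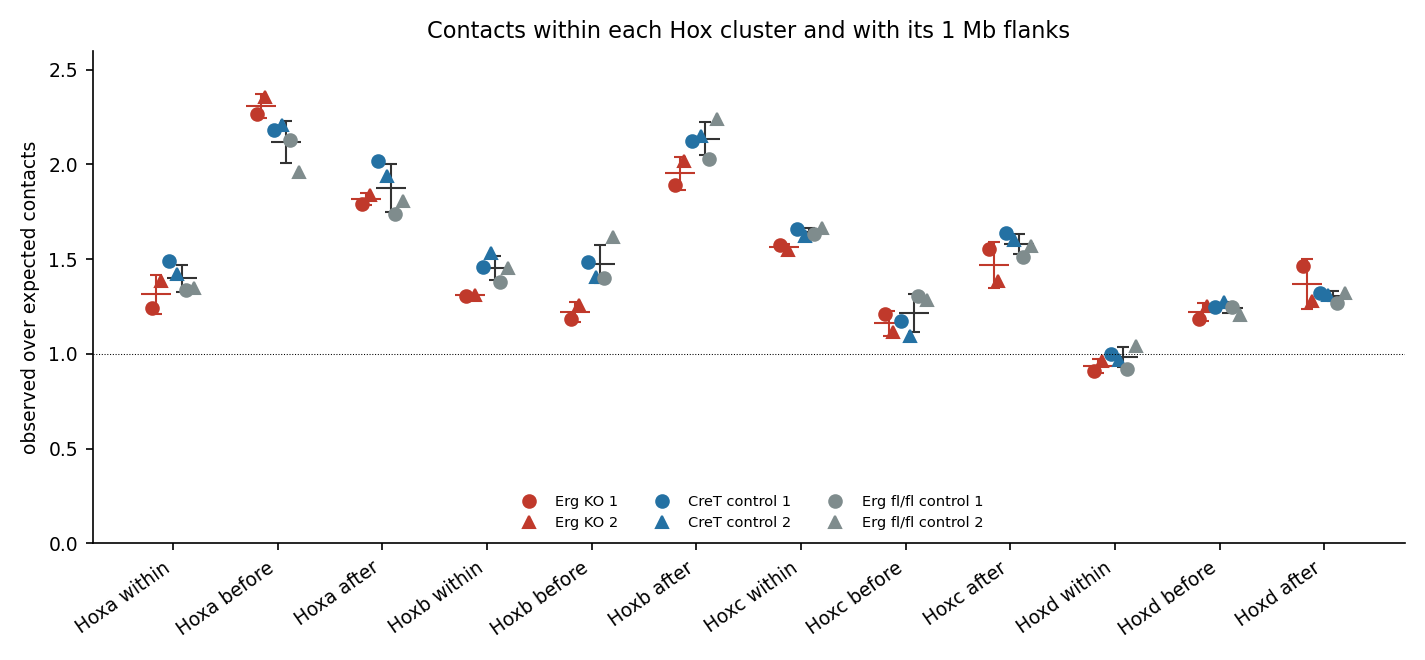
Observed over expected contacts (vertical axis, a ratio, 1 at the dotted line) within each cluster and with its flanks before and after it. Points are libraries, coloured by group, and bars are mean and SD by genotype (Erg KO, n = 2; controls, n = 4). At Hoxb before the Erg KO libraries lie at 1.18 and 1.26, below all controls.

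The third question was which bin pairs changed. All 193 pairs of a cluster bin with another cluster bin, with itself or with a flank bin passed the filters and were tested among 431285 bin pairs. Against both controls 22 fell and 1 rose, and 14 of the 22 were contacts of Hoxb, most of them with bins 500 kb to 1 Mb away. Counts are given below as normalised counts, scaled between libraries by loess offsets.

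Of all tested bin pairs 6.28% fell and 6.49% rose, and of those 1 to 11 bins apart 9.05% fell and 7.48% rose. The Hoxb pairs fell in 14 of 66 cases (21.2%), the Hoxc pairs in 5 of 41 (12.2%), the Hoxa pairs in 2 of 43 (4.65%) and the Hoxd pairs in 1 of 43 (2.33%), so that the share of Hoxb was above that at like distances, that of Hoxc slightly above it and those of Hoxa and Hoxd below it, none of which was tested. Of the 66 Hoxb pairs 62 had a negative log2 fold change, with a median of -0.37, against 32 of 41 for Hoxc (-0.23), 28 of 43 for Hoxa (-0.13) and 23 of 43 for Hoxd (-0.03). Against the CreT control alone 10 of the 193 pairs fell, where 3.49% of all pairs and 5.15% of those 1 to 11 bins apart did, and against the Erg fl/fl control alone 16 fell, where 5.18% and 7.57% did. Against each control alone the share of all 193 pairs was thus near that at like distances. Hoxb held 7 of the 10 and 11 of the 16, among its 66 pairs, which was above those shares. That excess was not tested. The Erg KO libraries are shared by these comparisons. Between the 2 controls 0 of the 193 passed and the median log2 difference was 0.02. In these edgeR fits 1 of all 431285 pairs passed between the controls, with 12625 below and 15227 above at an unadjusted p under 0.05.

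The Hoxb13 bin met the bin of Phb less, a gene 500 kb before it that encodes prohibitin of the inner mitochondrial membrane. The normalised counts were 33.6 and 42.2 in Erg KO, 75.6 and 61.2 in the CreT control and 74.7 and 80.2 in the Erg fl/fl control. These groups did not overlap, and the log2 fold change of -0.99 ± 0.20 (SE) had the smallest adjusted p of the 193 pairs, 0.000167 (edgeR quasi-likelihood test). The Hoxb6 to Hoxb9 bin met the same Phb bin with 28.3 and 32.4 in Erg KO against 48.6 to 59.8 in controls (-0.76 ± 0.23, adjusted p = 0.016).

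The bin of Zfp652, a zinc-finger repressor gene, lay 6 bins before the Hoxb1 to Hoxb5 bin. Their contact counted 11.6 and 24.0 in Erg KO, 34.2 and 29.5 in the CreT control and 33.0 and 50.7 in the Erg fl/fl control. Both Erg KO libraries were below all controls (-1.26 ± 0.29, adjusted p = 0.000903). With the Hoxb6 to Hoxb9 bin, the Zfp652 bin counted 29.3 and 40.0 in Erg KO and 39.9 to 59.6 in controls, where the groups touched (-0.64, adjusted p = 0.045). The next bin after that of Zfp652 holds Phospho1 of bone mineralisation and Gngt2 of the phototransduction G proteins. It also met Hoxb1 to Hoxb5 less (-0.79, adjusted p = 0.0282). Further out in this flank, 6 bins before the cluster, the bin of Nxph3 and Ngfr, a neurotrophin receptor gene, met Hoxb13 less (-0.64, adjusted p = 0.0175).

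On the other side of Hoxb, 6 pairs fell. The bin of Skap1, an adaptor of lymphocyte adhesion that neighbours the cluster, met the Hoxb13 bin with normalised counts of 57.7 and 81.6 in Erg KO, 94.9 and 97.8 in the CreT control and 102 and 102 in the Erg fl/fl control (-0.58 ± 0.16, adjusted p = 0.0066). Those groups did not overlap. The bin of Snx11 and Cbx1, the latter a heterochromatin protein gene, fell with the Hoxb6 to Hoxb9 bin (-0.42, adjusted p = 0.038), where the groups overlapped. The bin of Sp6 and Scrn2 fell with both the Hoxb13 bin (-0.89, adjusted p = 0.0214) and the Hoxb1 to Hoxb5 bin (-0.88, adjusted p = 0.016), the groups overlapping for the latter. The bin of Tbx21, the T-bet gene of lymphocytes, and Tbkbp1 fell with the Hoxb6 to Hoxb9 bin (-1.14, adjusted p = 0.0118), also with overlap. The bin of Npepps, an aminopeptidase gene, fell with the same bin (-1.75, adjusted p = 0.00846). That contact rested on 4.27 and 5.49 normalised counts in Erg KO and 7.97 to 25.2 in controls.

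Within Hoxb itself, the 2 ends of the cluster met less. The Hoxb13 bin and the Hoxb1 to Hoxb5 bin shared 74.1 and 75.2 normalised counts in Erg KO, 97.5 and 102 in the CreT control and 104 and 117 in the Erg fl/fl control. Both Erg KO libraries were close to each other and below all controls (-0.52 ± 0.15, adjusted p = 0.0135). Contacts inside the Hoxb6 to Hoxb9 bin counted 239 and 209 in Erg KO and 263 to 292 in controls (-0.28 ± 0.09, adjusted p = 0.0263).

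At Hoxc, 4 of the 5 pairs that fell joined the 2 cluster bins to the same 2 bins after them. The bin of Pde1b, a phosphodiesterase gene, and Ppp1r1a met the bin of Hoxc5 to Hoxc13 with 22.1 and 22.9 normalised counts in Erg KO, 45.2 and 40.4 in the CreT control and 44.3 and 36.4 in the Erg fl/fl control (-0.85 ± 0.26, adjusted p = 0.0173). It met the Hoxc4 bin with 28.3 and 37.8 in Erg KO and 42.0 to 59.5 in controls (-0.74, adjusted p = 0.0191). The bin of Gtsf1 and Gtsf2, genes named for gametocytes, fell with the same 2 bins (-0.79 and -0.68, adjusted p = 0.04 and 0.0329). In all 4 the Erg KO libraries lay below all controls. The last pair joined Hoxc4 to the keratin genes Krt8 and Krt18, 1 Mb before it, with 2.14 and 11.1 normalised counts in Erg KO and 15.4 to 19.1 in controls (-1.57 ± 0.44, adjusted p = 0.00797).

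At Hoxa the 3 pairs that passed all joined the bin of Hoxa2 and Hoxa4, genes of the hindbrain and neck. The only Hox pair that rose was with a bin 200 kb before it, which holds the start of no protein-coding gene. It counted 164 and 179 in Erg KO, 149 and 143 in the CreT control and 154 and 106 in the Erg fl/fl control, with no overlap (0.33 ± 0.12, adjusted p = 0.0455). Contacts of the same Hoxa bin with the Creb5 bin, the gene of a CREB-family factor 11 bins after it, counted 8.55 and 7.75 in Erg KO and 13.5 to 21.4 in controls (-1.22, adjusted p = 0.0308), and a bin between them with no protein-coding start fell too (-0.68, adjusted p = 0.0484). The bin of Hoxa3 to Hoxa13 had no pair that passed. At Hoxd the only one was between the Hoxd1 to Hoxd8 bin and a bin 500 kb before it with no protein-coding start (-0.69, adjusted p = 0.0486, groups overlapping), which is also the lowest-scoring bin of the domain. Next in size in the Hoxd flanks came a bin 11 bins before the same bin (-0.57, adjusted p = 0.255) and the bin of Nfe2l2, the NRF2 gene (-0.46, adjusted p = 0.362), and neither passed.

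The counts depended on how GC content and single libraries were treated. With the GC content of the bins as a trend in the loess offsets, 0 of the 193 pairs fell and 11 rose, 3 of them in Hoxb, where 0.976% of all pairs fell and 1.39% rose, and 1.36% and 1.16% of those 1 to 11 bins apart, and the median of the Hoxb pairs moved from -0.37 to -0.06. Of the 11, 5 were in Hoxc, and 7 were among the 15 pairs inside the clusters. Without Erg KO replicate 1, 0 of the 193 pairs fell and 0 of all 431285 pairs passed edgeR in either direction, where 34622 were lower and 31228 higher at an unadjusted p under 0.05. Without Erg KO replicate 2, 0 fell, where 0.182% of pairs 1 to 11 bins apart did. Without CreT control replicate 1 it was 10, where 5.81% did, and without Erg fl/fl control replicate 2 it was 5, where 2.7% did. Calls at the Hox clusters were thus lost along with those elsewhere. All 22 kept a negative log2 fold change in each of the 4 fits without a library. With GC offsets 1 of them turned, the contacts inside the Hoxb6 to Hoxb9 bin, which stood at 0.094.

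**Figure D3:**
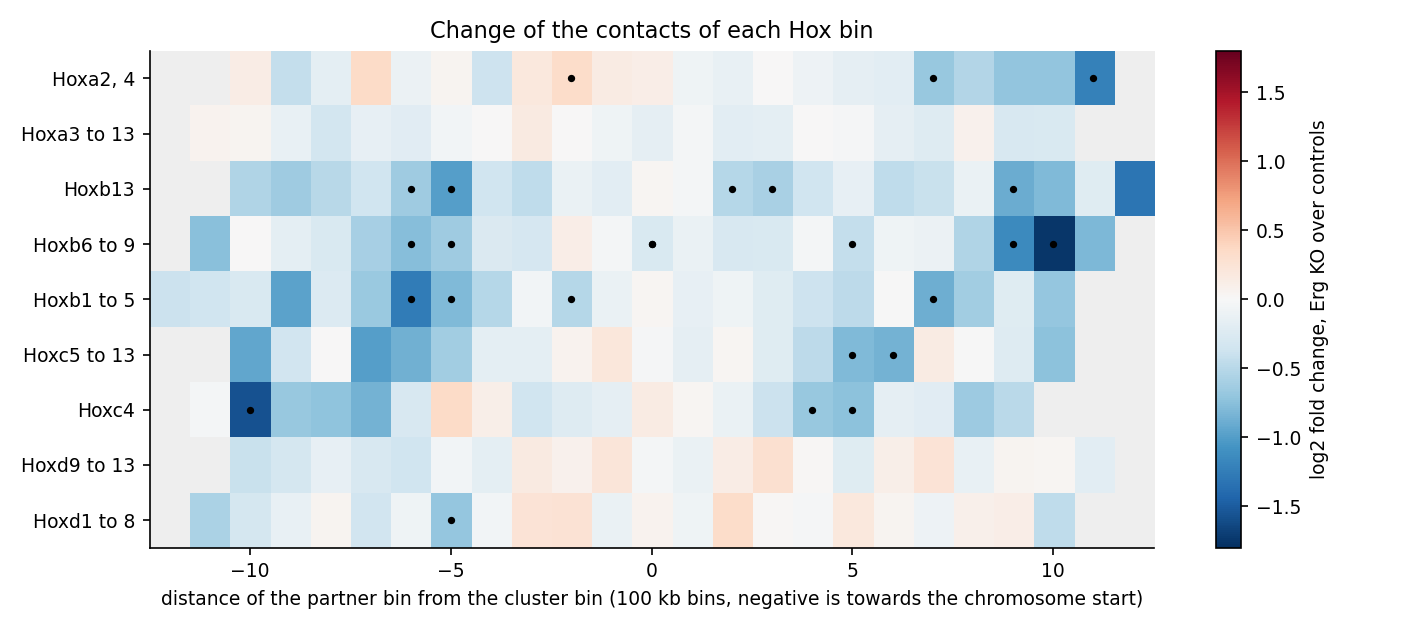
Log2 fold change of normalised contact counts, Erg KO over both controls (colour), for each of the 9 cluster bins (rows) against partner bins by distance (horizontal axis, in bins of 100 kb). Dots mark pairs that passed edgeR at an adjusted p of 0.05, pairs of 2 cluster bins appear in both rows, and grey was outside the flanks. The 3 Hoxb rows carry most dots, 14 pairs in all.

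Summed per bin, the contacts of 200 kb to 2 Mb, called local contacts, are given next. The Hoxb13 bin had 1009 and 1143 normalised contacts in Erg KO, 1341 and 1314 in the CreT control and 1229 and 1476 in the Erg fl/fl control (log2 fold change -0.37 ± 0.06, adjusted p = 1.1e-05, edgeR). The Hoxb6 to Hoxb9 bin had 1296 and 1204 in Erg KO and 1370 to 1521 in controls (-0.21, adjusted p = 0.00497). At both, the Erg KO libraries lay below all controls. The Hoxb1 to Hoxb5 bin had 965 and 1169 in Erg KO and 1160 to 1317 in controls, with a narrow overlap (-0.30, adjusted p = 0.000122). The Hoxc4 bin had 748 and 721 in Erg KO and 865 to 948 in controls, with none (-0.29, adjusted p = 0.000819).

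The other 5 cluster bins had changes of -0.15 to 0.03 and did not pass, although at Hoxc5 to Hoxc13 and at Hoxd9 to Hoxd13 both Erg KO libraries lay below all controls. So 4 of 9 cluster bins fell and 0 rose, where 33.2% of all bins fell and 34.3% rose, a share near the background. Local contacts also fell in 8 of 10 B-lineage markers, which lie in 8 bins, in 6 of 6 myeloid markers and in 2 of 12 stromal markers. They rose in 3 of the stromal markers and in 0 of the B-lineage and myeloid markers. The part of these markers in the values of the Hox bins was not tested. Without Erg fl/fl control replicate 1 more cluster bins fell, as did more of all bins. With GC offsets, an alternative chosen after seeing the data, 0 fell and 5 rose (both Hoxa bins, both Hoxd bins and Hoxb6 to Hoxb9, by 0.22 to 0.56), where 20.1% of all bins fell and 21.1% rose. The 3 Hoxb bins then stood at 0.05, 0.27 and 0.13, so the direction of change at Hoxb turned with the offsets. That fit replaced TMM scaling by loess offsets and also added the GC trend. Loess offsets alone already turned the sign at Hoxb6 to Hoxb9, and the part of GC content in the turn was not tested. In level, Hoxa was the outlier: the bin of Hoxa3 to Hoxa13 had 1893 ± 93.3 normalised local contacts in controls (SD, n = 4), more than 99.9% of kept bins.

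Insulation was measured as the log2 of the mean contacts between the 5 bins before and the 5 bins after a bin, over the chromosome mean, so that a boundary has a low value. None of the 9 cluster bins lay among the lower values. In controls the values ran from -0.104 ± 0.0643 at Hoxd9 to Hoxd13 to 0.807 ± 0.0709 at Hoxb1 to Hoxb5 (SD, n = 4), and 54.3% to 90.3% of bins had a lower value. In Erg KO 0 of 9 passed limma, where 26.7% of all 23338 bins fell and 39.1% rose, and the smallest adjusted p, 0.0903, was at Hoxd1 to Hoxd8 with a change of 0.15. At unadjusted p under 0.05 limma placed 6638 bins of the genome lower and 9562 higher. Both Hoxc bins lay below all controls, at 0.529 and 0.535 against 0.587 to 0.696 for Hoxc5 to Hoxc13 (adjusted p = 0.164) and at 0.628 and 0.574 against 0.7 to 0.794 for Hoxc4 (adjusted p = 0.106). Without Erg fl/fl control replicate 1, which left 1 library in that group, cluster bins passed in both directions. Over all bins, too, more passed in each direction than in the main fit.

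The direction in which each bin reached was given by the log2 ratio of its contacts with the 1 Mb after it to those with the 1 Mb before it. Neighbouring bins of Hoxa faced opposite ways, and so did those of Hoxd. The bin of Hoxa2 and Hoxa4 had -1.36 and -1.11 in Erg KO, -0.80 and -1.06 in the CreT control and -1.10 and -0.72 in the Erg fl/fl control, while the bin of Hoxa3 to Hoxa13 had 0.33 to 0.49. The bin of Hoxd9 to Hoxd13 had -0.54 to -0.31, and that of Hoxd1 to Hoxd8 0.49 to 0.91. The switch was present in 6 of 6 libraries for both clusters, and 4.86% of 23213 neighbouring kept bins showed such a switch. Its mean size over the libraries was 1.45 at Hoxa, a step that 1.27% of neighbouring bins exceeded, and 1.04 at Hoxd, which 4.03% exceeded.

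The Hoxb bins all reached towards the after flank, with 0.13 to 0.36 at Hoxb13, 0.27 to 0.56 at Hoxb6 to Hoxb9 and 0.54 to 0.87 at Hoxb1 to Hoxb5 over the 6 libraries. Hoxc5 to Hoxc13 had 0.37 to 0.76, and Hoxc4 -0.15 to 0.14, on either side of zero. In Erg KO the Hoxb1 to Hoxb5 bin, at 0.87 and 0.83, lay above all controls (0.54 to 0.80), and the Hoxa2 and Hoxa4 bin below all of them. Both gave an exact permutation p of 0.133 (two-sided, n = 2 against 4), and 0.6 adjusted over the 9 bins. The groups overlapped at the other 7 bins, with exact p from 0.267 to 0.867.

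**Figure D4:**
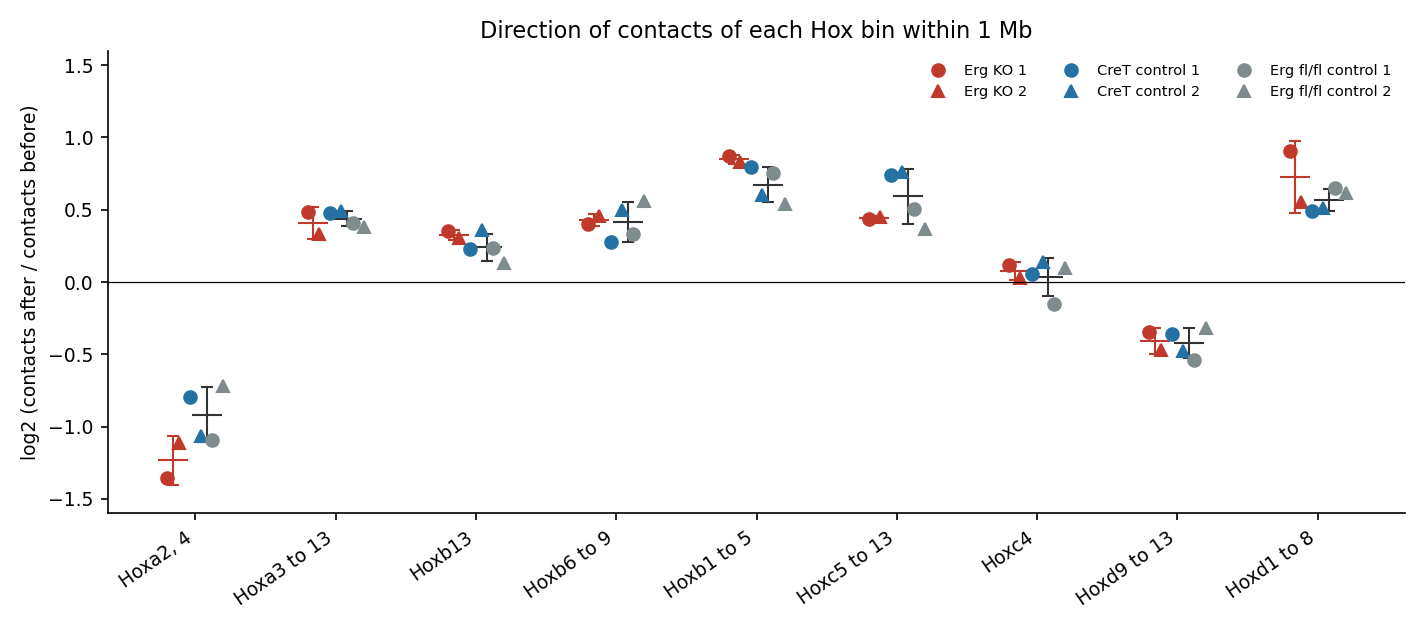
Log2 ratio of contacts with the 1 Mb after to the 1 Mb before each cluster bin (vertical axis), by bin, for the 6 libraries. Bars are mean and SD by genotype (Erg KO, n = 2; controls, n = 4). The neighbouring bins of Hoxa, and those of Hoxd, lie on opposite sides of 0 in 6 of 6 libraries.

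Contacts with other chromosomes set Hoxc and Hoxd far apart. They were taken per bin as the log2 of contacts with other autosomes over contacts within its chromosome, less the median bin of the library. The measure was not corrected for chromosome length or for place on the chromosome, and Hoxc lies near a chromosome end. How far these enter the levels was not tested. The Hoxd bins had some of the lowest values of the genome, with -0.740 ± 0.112 and -0.764 ± 0.0835 in controls (SD, n = 4), values that 1.02% and 0.808% of bins were below. The Hoxc bins had some of the highest, with 0.737 ± 0.0437 and 0.798 ± 0.0441, above 97.0% and 97.8% of bins. Hoxa had 0.340 ± 0.0998 and 0.00403 ± 0.0761, and the 3 Hoxb bins 0.146 to 0.359.

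In Erg KO 2 of 9 cluster bins rose and 0 fell in this measure, where 17.1% of all bins rose and 13.3% fell. The Hoxb13 bin had 0.399 and 0.324 in Erg KO, 0.243 and 0.233 in the CreT control and 0.216 and 0.0553 in the Erg fl/fl control (change 0.20 ± 0.06, adjusted p = 0.00921, limma). The Hoxd1 to Hoxd8 bin had -0.598 and -0.522 in Erg KO, -0.865 and -0.786 in the CreT control and -0.667 and -0.736 in the Erg fl/fl control (0.20 ± 0.06, adjusted p = 0.0118). At both, the Erg KO libraries lay above all controls. With contacts beyond 2 Mb as the denominator neither passed, with changes of 0.12 and 0.14 (adjusted p = 0.181 and 0.13). Without Erg KO replicate 1 the count was 4, as it was without Erg fl/fl control replicate 1. It was 1 without Erg KO replicate 2, CreT control replicate 1 or Erg fl/fl control replicate 2.

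The last comparison asked whether the clusters met one another across chromosomes. Expected counts came from the trans totals of the bins, with no account of compartment score. The cluster bins alone shared 31 read pairs over all 6 libraries and all 6 pairings of clusters where 16.4 were expected, a ratio of 1.89 with a 95% exact Poisson interval of 1.28 to 2.68, which covers counting error only. Of these, 12 joined Hoxb and Hoxc, 9 Hoxa and Hoxb, and 0 Hoxa and Hoxd, where 1.27 were expected and a count of 0 allows a ratio of up to 2.90. With such counts no difference between genotypes was detectable at this depth.

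With their flanks the regions shared 2418 read pairs, 1.45 times the expected. Pooled, Hoxa, Hoxb and Hoxc met one another more than expected, and the 3 pairings with Hoxd did not exceed it. Pooled over the libraries, the ratio was 1.99 for Hoxa and Hoxb (657 read pairs, 1.85 to 2.15), 1.84 for Hoxb and Hoxc (782, 1.72 to 1.98) and 1.33 for Hoxa and Hoxc (464, 1.21 to 1.45). It was 0.861 for Hoxa and Hoxd (140, 0.725 to 1.02), 0.983 for Hoxb and Hoxd (194, 0.849 to 1.13) and 0.863 for Hoxc and Hoxd (181, 0.742 to 0.999). The same split held in compartment score, where Hoxd was the only cluster near zero. No other regions of like score were measured, so whether such ratios are particular to Hox regions was not tested. Every one of the 6 libraries had Hoxa with Hoxb, and Hoxb with Hoxc, above 1.5. Hoxa with Hoxc ranged from 0.988 in CreT control replicate 1 to 1.71 in Erg fl/fl control replicate 1, and the pairings with Hoxd lay on both sides of 1, from 0.642 to 1.48.

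Between genotypes, Hoxb and Hoxd had ratios of 1.26 and 1.07 in Erg KO, 0.922 and 0.792 in the CreT control and 0.802 and 0.895 in the Erg fl/fl control. Both Erg KO libraries lay above all controls (1.17 ± 0.135 against 0.853 ± 0.065, SD), with an exact permutation p of 0.0667 (two-sided, n = 2 against 4) and 0.4 adjusted over the 6 pairings. With flanks of 500 kb this difference was -0.002 in place of 0.31. The other 5 pairings overlapped between the groups, with exact p from 0.467 to 0.667.

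**Figure D5:**
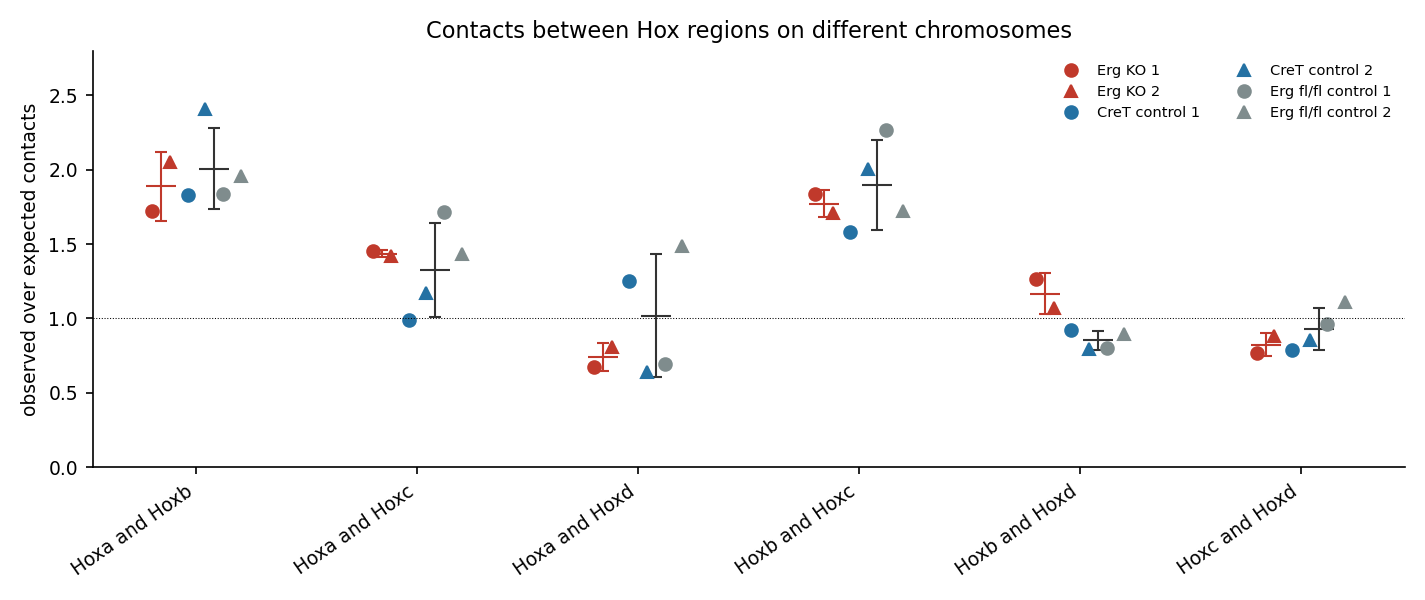
Observed over expected read pairs (vertical axis, a ratio, 1 at the dotted line) between regions of 2 Hox clusters with their flanks on different chromosomes, for the 6 libraries. Bars are mean and SD by genotype (Erg KO, n = 2; controls, n = 4). Hoxa with Hoxb and Hoxb with Hoxc lie above 1.5 in every library, and the 3 pairings with Hoxd lie around 1.

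Genes whose products act on Hox genes, and other homeobox genes, were taken from lists, by the compartment score of their bins, where 2.36% of all bins fell and 1.58% rose. In that score, of the 14 Polycomb genes 0 passed and the median was 0.01, the largest changes being those of Bmi1 (-0.21, adjusted p = 0.08), Phc1 (-0.14, 0.218), Eed (0.10, 0.0865) and Cbx2 (-0.07, 0.172). Of the 8 Trithorax and demethylase genes 0 passed, with a median of 0.03 and the largest changes at Men1 (0.19, adjusted p = 0.0506), Psip1 (0.13, 0.0755), Dot1l (0.07, 0.146) and Wdr5 (0.03, 0.451). Of the 4 genes of CTCF and cohesin on autosomes 0 passed, Rad21 changing by 0.14 (adjusted p = 0.101), Smc3 by 0.09 (0.129), Nipbl by -0.08 (0.236) and Ctcf by -0.01 (0.824). Among 25 other homeobox loci 1 fell and 0 rose, and it was Evx2, which shares the bin of Hoxd9 to Hoxd13. In the other measures these lists did move. Local contacts fell in 11 of 14 Polycomb genes, which lie in 12 bins, with a median of -0.43. They fell in 6 of 8 Trithorax and demethylase genes (-0.47), in 1 of 4 genes of CTCF and cohesin (-0.02) and in 9 of 25 other homeobox loci (-0.05). They rose in 0, 1, 1 and 2 genes of these lists, where 33.2% of all bins fell and 34.3% rose. Insulation fell at 10 of the 14 Polycomb genes and 4 of the 8 Trithorax and demethylase genes. It rose at 1 gene of each list, where 26.7% of all bins fell and 39.1% rose. Trans over cis rose at 1 of the 14 Polycomb genes and 5 of the 8 Trithorax and demethylase genes. For CTCF and cohesin it rose at 1 of 4 genes, and for other homeobox loci at 9 of 25. It fell at 1, 0, 0 and 1 genes of these lists, where 17.1% of all bins rose and 13.3% fell. All these values came from fits without GC offsets, and the part of GC content in them was not tested.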

How the data were processed

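The authors deposited raw read pair counts for each pair of bins of 100 kb on mm10, 1 matrix per library, made with diffHic after marking duplicates. The members and lists were chosen with earlier results of these data known. Autosomal bins with a total of 0.3 to 3 times the median were kept. Bin pairs with a summed count of at least 10 and an abundance at least 5 times that between chromosomes were tested with edgeR 4.0.16 (quasi-likelihood, loess offsets, genotype and sex, all 6 libraries), and Benjamini-Hochberg adjusted p-values were taken over all features at a threshold of 0.05. Local contacts used edgeR with TMM scaling. Compartment score, insulation and trans over cis used limma 3.58.1. Fold changes are log2 and pool both controls with equal weight. DESeq2 1.42.0 was an alternative. The deposited labels call the libraries biological replicates. Single ratios were tested by exact permutation, whose smallest p is 0.0667. The scripts for edgeR and limma were tested on simulated data. Those data held no GC trend, sex effect or outlying library, so they cannot show how such features affect the calls. Counts for whole bins cannot separate genes that share a bin.

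Neighbour genes were named where the contact of their bin with a cluster bin passed, at most 2 per bin, or, in a cluster with under 3 such pairs, for the 3 flank bins with the largest change at a mean count of at least 20. Genes of a list were named where they passed, otherwise the 4 with the largest change. Gene starts came from GENCODE and promoters from RefSeq. The result of 1 gene list is not reported here.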

Additional observations from a re-analysis of the deposited data

How the results depend on the processing

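The 22 bin pairs that fell became 0 with GC offsets, 0 with DESeq2, which gave an adjusted p to 88458 of the 431285 pairs, 7 without sex, and 9 with a replicate block in place of sex. Leaving out a library gave 0 to 33. Of the 14 Hoxb pairs, the count was 0, 0, 5 and 6 under the same settings, 22 with an abundance of at least 10 times, and 0 to 21 without a library. The 1 pair that rose became 11 with GC offsets, 0 with DESeq2, 0 without sex, 0 with the block, 2 with TMM, 3 with the abundance of 10 times, and 0 to 2 without a library. The 1 compartment call became 0 without sex, 0 with the block and 0 to 2 without a library. Insulation, with 0 calls, gave 1 and 2 lower with windows of 3 and 10 bins, and 0 to 1 lower and 0 to 1 higher without a library. The 2 rises of trans over cis became 0 with contacts beyond 2 Mb, 1 without sex, 1 with the block and 1 to 4 without a library. The 4 falls of local contacts became 1 with loess offsets, 2 without sex, 0 with GC offsets and 3 to 7 without a library, and the 0 rises became 4 and 5 with loess and GC offsets. Counts over all bins and bin pairs moved under these settings as well. The cause was not tested.

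With GC offsets the contacts inside the Hoxb6 to Hoxb9 bin stood at 0.0937 and the local contacts of the 3 Hoxb bins at 0.0543, 0.273 and 0.129. With loess offsets those of Hoxb6 to Hoxb9 stood at 0.094.

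Among values with no call, the sign also turned for Hoxb with its after flank on same-chromosome expected counts (0.0178) and, with flanks of 500 kb, for Hoxc before (0.0112), Hoxd before (0.0738), the directionality of Hoxb6 to Hoxb9 (-0.00699) and Hoxd9 to Hoxd13 (-0.138), and the trans contacts of Hoxb with Hoxd (-0.00207) and Hoxc with Hoxd (0.316). It turned for Hoxa with Hoxc on expected counts from totals (-0.0662). Without a library, Hoxd before ran from -0.0684 to 0.012 and Hoxd after from -0.0299 to 0.166. Directionality differences ran from -0.109 to 0.0467 at Hoxa3 to Hoxa13, -0.0338 to 0.0621 at Hoxb6 to Hoxb9, -0.0254 to 0.0816 at Hoxc4, -0.0488 to 0.079 at Hoxd9 to Hoxd13 and -0.0179 to 0.336 at Hoxd1 to Hoxd8. Trans differences ran from -0.282 to 0.0463 for Hoxa with Hoxb, -0.00459 to 0.237 for Hoxa with Hoxc and -0.228 to 0.000648 for Hoxb with Hoxc.

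Deviations of libraries with the same number correlated at 0.20 to 0.54 between Erg KO and the Erg fl/fl control, whose numbers also share sex, and at -0.02 to -0.19 and -0.17 to -0.48 for the other pairings, so the numbers were not taken to pair the libraries. Over the alternatives, 264 recomputed counts and cluster values kept their direction and side of the threshold, 38 became weaker, 15 stronger and 24 turned. For single bins and bin pairs it was 188, 217, 1 and 5. All 23 named pairs lost their call with DESeq2 and without either Erg KO library, and 0 kept it with GC offsets.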
